A study of Mus musculus with 40 samples.

Results

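The lowest dose of GenX was compared with vehicle in the livers of 20 of the 40 mice of the study, 10 given 0.1 mg/kg body weight per day and 10 controls. The members were chosen by mouse number: mice 201 to 205 and 251 to 255 received 0.1 mg/kg, and mice 101 to 105 and 151 to 155 were the controls. Numbers ending in 01 to 05 are males and those ending in 51 to 55 are females, so each side held 5 males and 5 females, and sex was the blocking factor. All were wildtype Crl:CD1(ICR) mice, an outbred stock, housed individually and dosed by oral gavage each day for 90 days, and their age is not given in the sources used here. GenX is the ammonium salt of a perfluorinated ether acid. It was given in deionized water, and the controls received deionized water alone. The other doses of the study, 0.5 and 5 mg/kg, serve below as points of reference.

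RNA from formalin-fixed, paraffin-embedded liver sections was measured with TempO-Seq, an assay in which 2 neighbouring DNA probes are ligated on each RNA and the products are amplified and read. The deposited values are raw read counts on 30146 probes for 21448 gene symbols, and the probe with the most reads stands for each gene. The 20 libraries held 10341341 to 15562253 reads. Low counts gathered at a first peak of 24 to 49.8 reads, so a library stands for about 287244 to 521441 captured molecules, and a value of a few CPM rests on about 1 molecule. Values are given as CPM, the counts after TMM scaling to a common library size. No 2 libraries were identical. The Y-linked gene *Ddx3y* had reads in 10 of 10 males and in 0 of 10 females, as the labels have it. The 10 hepatocyte markers summed to 23200 to 29300 CPM in the 20 mice, while markers of adipocytes and pancreas summed to at most 6.74 and 13.1 CPM.

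Perfluorinated acids of this kind resemble fatty acids, and many of them activate PPARα, the nuclear receptor by which hepatocytes sense fatty acids during fasting. Active PPARα binds DNA with the retinoid X receptor and raises transcription of genes for fatty acid uptake, peroxisomal and mitochondrial β-oxidation, ω-hydroxylation by the Cyp4a enzymes and ketone body synthesis. In rodents, sustained activation enlarges the liver and multiplies peroxisomes. *Ehhadh*, *Cyp4a10* and *Cyp4a14* are among the most used reporters of this response.

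No gene was called at 0.1 mg/kg when the sexes were pooled. Of 9946 genes tested with edgeR's quasi-likelihood test, 0 (0%) had a Benjamini-Hochberg adjusted p below 0.1, and the smallest adjusted p rounded to 1. DESeq2's Wald test also called 0 of these genes, with a smallest adjusted p of 0.118. Without adjustment, edgeR gave 249 genes (2.5%) with a p below 0.05, 148 of them higher (1.49%) and 101 lower (1.02%) in treated mice, and DESeq2 gave 417. The edgeR share lay below 0.05, the share that evenly spread p-values would give, and it depended on the fit. As the mean of the 2 within-sex contrasts edgeR gave 579 of 10688 genes, and on 39 libraries 1022 of 12411. These 2 fits also called 0 genes, with smallest adjusted p of 0.683 and 0.246. The log2 fold changes were centred on 0, with a median of 0.001 and quartiles of -0.22 and 0.21, and their median standard error was 0.41. For 4541 genes (45.7%), the 95% interval of the log2 fold change lay between -1 and 1, so a 2-fold difference either way fell outside it. For the rest, a change of that size remained within the interval.

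Within each sex, treated and control mice were compared in a model of the 4 groups. In males, edgeR called 0 of 10688 genes (0%), with a smallest adjusted p of 0.283, and 738 genes (6.9%) had an unadjusted p below 0.05. In females, edgeR called 0 genes (0%), with a smallest adjusted p of 0.995, and 385 genes (3.6%) had an unadjusted p below 0.05. The call in each sex depended on the tool. DESeq2 called 49 genes in males and 21 in females, of which 37 and 20 had no reads in at least 1 of the 10 libraries compared. In both sexes the call with edgeR missed the threshold, which does not show that no gene differed.

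The 12 genes that DESeq2 called in males and that had reads in each of the 10 libraries were looked at after their values were seen. They were higher for *Hspe1*, *Atp10d*, *Atp1b1*, *Hc*, *Dnajc24*, *Rogdi* and *Ehhadh*, and lower for *Adhfe1*, *Ccdc50*, *Lta4h*, *Rdh7* and a gene whose symbol is written as a calendar date. When the higher doses were added to the edgeR fit, 39 libraries in all, 5 genes were called in males, *Atp10d*, *Cxcl10*, *Dnajc24*, *Hspe1* and *Kif20a*, and 0 in females. Treated and control males did not overlap for 79 of the 9946 genes (0.794%), and treated and control females did not for 71 (0.714%). For 0 genes (0%) did the groups separate in both sexes in the same direction. With 5 mice against 5, some genes separate without any effect, and how many was not tested. The separations of single genes given below are therefore not calls.

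The peroxisomal β-oxidation list begins the account of gene groups, since its enzymes are the core of the PPARα program. Of its 22 genes, 19 were tested, 0 were called, 14 had a log2 fold change above 0, and the median was 0.10, beside 0.001 over all genes. For 16 of the 19, the 95% interval lay within -1 to 1. *Ehhadh* (chromosome 16, 21761287 to 21787807, GRCm38), the bifunctional enzyme of the pathway, was one of 2 members with an unadjusted p below 0.05, beside 1.49% of all genes in that direction.

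In control males *Ehhadh* stood at 203, 311, 298, 258 and 168 CPM, and in treated males at 342, 430, 339, 339 and 509 CPM. In control females it stood at 306, 205, 337, 331 and 339 CPM, and in treated females at 352, 376, 285, 291 and 263 CPM. The treated males thus lay above all control males, whereas the females of both groups overlapped. The pooled log2 fold change was 0.36 (95% interval 0.08 to 0.63), with an unadjusted p of 0.0144 and an adjusted p of 1. In males it was 0.66 (0.30 to 1.02), with an adjusted p of 0.562 in edgeR and 0.0461 in DESeq2, and in females it was 0.04 (-0.31 to 0.40). The difference between the sexes was 0.61 (0.11 to 1.12), with an unadjusted p of 0.0194 and an adjusted p of 0.909, so it was not called either.

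The other member with a small p was *Acaa1a*, the peroxisomal thiolase that ends each cycle of the pathway. It ranged from 416 to 771 CPM in control males and from 609 to 1550 CPM in treated males. Female controls ranged from 318 to 809 CPM and treated females from 396 to 635 CPM. Treated males extended to higher values but overlapped the controls. Its pooled log2 fold change was 0.38 (0.04 to 0.72), and 2 other probes for the gene gave -0.08 and 0.30. *Acaa1b*, its close paralog, had 3.17 to 35.2 CPM in males and a wide interval, 0.31 (-0.79 to 1.41).

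The Cyp4 ω-hydroxylases, which oxidize the far end of fatty acids, had the highest median of the 20 lists, 0.28 over 11 tested genes, and 9 of them were above 0. Again 0 were called, and only 5 of the 11 intervals lay within -1 to 1. *Cyp4a10* (chromosome 4, 115518264 to 115533649) stood at 38.5, 105, 21.4, 43.5 and 15.1 CPM in control males and at 65.9, 282, 82.1, 135 and 72.2 CPM in treated males. In control females it stood at 91.1, 165, 317, 94.2 and 250 CPM, and in treated females at 162, 145, 91.5, 316 and 165 CPM. In males 4 of 5 controls lay under every treated mouse, and control mouse 102 reached into the treated range. The range of the female controls covered that of the treated females.

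The pooled log2 fold change of *Cyp4a10* was 0.72 (0.00 to 1.45), with an unadjusted p of 0.0508 and an adjusted p of 1. It was 1.51 (0.61 to 2.42) in males and -0.06 (-0.94 to 0.82) in females, and the difference of 1.57 (0.31 to 2.83) had an adjusted p of 0.909. A second probe gave 1.15 when the sexes were pooled. *Cyp4a14*, which lies beside it on chromosome 4, had 0 to 37.1 CPM in control males and 10 to 60.6 CPM in treated males, against 3.27 to 104 and 7.71 to 89.2 CPM in females. Its estimate was 1.03 (-0.17 to 2.22), an interval that holds both 0 and the estimates seen for the other Cyp4a genes. *Cyp4a31*, from the same cluster, had 0.44 (0.01 to 0.86). The Cyp4a genes are near copies of each other, and how far their probes share reads is not known from the counts.

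In mitochondrial β-oxidation and the carnitine shuttle, 19 of 20 genes were tested, 0 were called, 16 were above 0 and the median was 0.11. *Hadhb*, a subunit of the trifunctional protein, stood at 222, 260, 263, 268 and 251 CPM in control males and at 271, 262, 328, 323 and 318 CPM in treated males. In control females it was 227, 260, 275, 244 and 196 CPM, and in treated females 276, 298, 262, 286 and 282 CPM. In each sex 4 of 5 treated mice lay above all controls, and the fifth did not. The log2 fold change was 0.24 (0.06 to 0.42), with an unadjusted p of 0.0101, and a second probe gave 0.33. *Acadl*, the long-chain acyl-CoA dehydrogenase, had 0.31 (0.07 to 0.54) pooled, 0.48 (0.15 to 0.81) in males and 0.13 (-0.20 to 0.46) in females. *Cpt1a*, the gate of the carnitine shuttle, was at 0 to 27.1 CPM on the probe used and gave -1.66 (-3.63 to 0.31), too wide to place.

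Among genes of fatty acid uptake, binding and activation, 14 were tested, 0 were called, 11 were above 0 and the median was 0.12. Males again separated for *Acsl1*, which links fatty acids to coenzyme A. It stood at 2480, 2560, 2840, 2430 and 2150 CPM in control males and at 2900, 3150, 2980, 2950 and 3010 CPM in treated males, with no overlap. Female controls ranged from 1430 to 1930 CPM and treated females from 1620 to 2130 CPM, and these overlapped. Its pooled log2 fold change was 0.19 (0.03 to 0.35), an unadjusted p of 0.0226, while a second probe gave -0.08.

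*Fabp1*, the abundant fatty acid carrier of hepatocytes, stood at 6310, 5760, 5980, 6110 and 5550 CPM in control males and at 6310, 7660, 7760, 7240 and 8480 CPM in treated males. Treated mouse 201 and the highest control share the digits given, but before rounding each of the 5 treated males lay above all control males. In females the treated mice ranged from 2110 to 5290 CPM and the controls from 2640 to 4670 CPM. The estimates were 0.17 (-0.08 to 0.41) pooled, 0.33 (-0.01 to 0.67) in males and 0.00 (-0.34 to 0.34) in females. *Cd36*, the membrane transporter, had a wide interval of 0.41 (-0.61 to 1.42) at 0.219 to 62.1 CPM, and *Acot1*, a cytosolic thioesterase, had 0.34 (-0.06 to 0.74).

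Of the 15 PPARα targets and related genes reported here, 13 were tested, 12 of those had an estimate above 0, and 7 had an interval within -1 to 1. In each of the 13, the estimate in males was above that in females, beside 5564 of the 10688 genes tested over the whole liver, and no difference between the sexes was called among them. The gene with the largest estimate, *Pdk4*, the kinase that shuts off pyruvate oxidation in fasting, had 0 reads in each of the 5 control males and at most 10.1 CPM in any mouse, so no fold is given. *Fgf21*, the fasting hormone of the liver, and *Vnn1*, a pantetheinase, were too low to be tested, with at most 3.48 and 4.86 CPM in the 20 mice. *Plin2*, a coat protein of lipid droplets, had 0.10 (-0.17 to 0.37) and *Angptl4*, an inhibitor of lipoprotein lipase, 0.19 (-0.38 to 0.76).

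**Figure D1:**
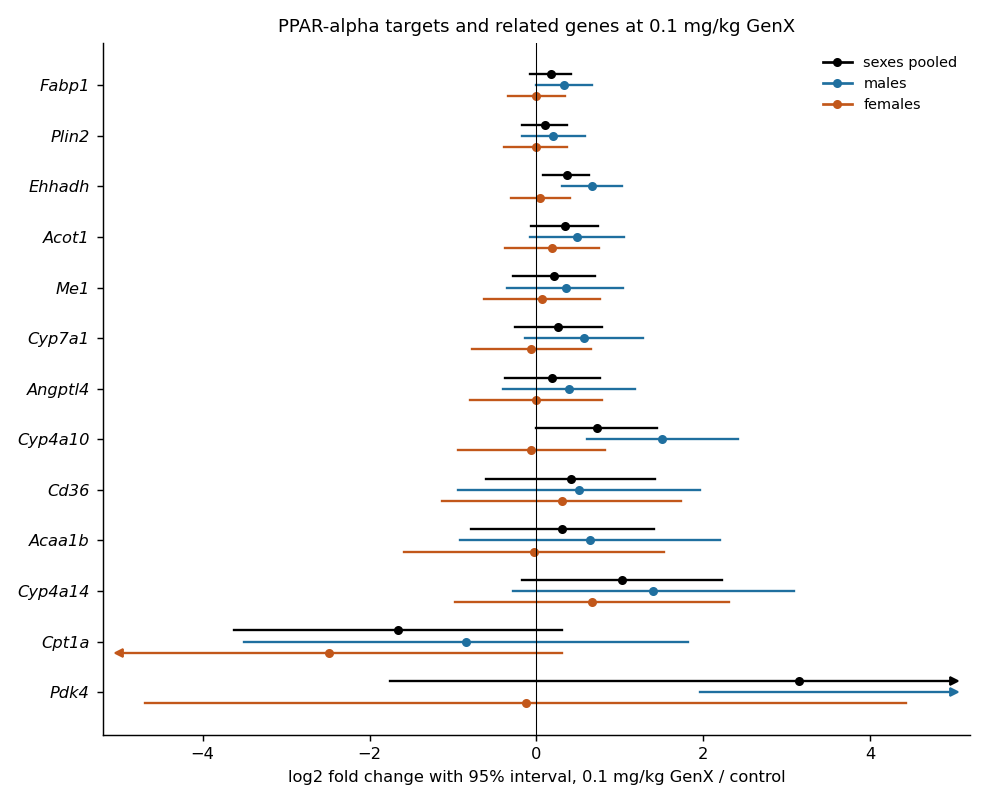
Log2 fold change at 0.1 mg/kg over control with its 95% interval (horizontal axis) for the 13 tested PPARα targets and related genes, sorted by standard error, with the sexes pooled (black) and within males (blue) and females (orange). Arrowheads mark intervals that run past the axis. In each gene the male estimate lies right of the female one, and for the pooled comparison 12 of the 13 intervals contain 0, the exception being *Ehhadh*.

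The dose steps above 0.1 mg/kg give a scale for these estimates. The 0.5 mg/kg mice (9 libraries, since mouse 355 was left out for low depth) and the 5 mg/kg mice (10 libraries) were each compared with the 0.1 mg/kg mice in a model of 8 groups. These comparisons share the low-dose mice with the comparison above, so the values stand side by side and are not set against each other. From 0.1 to 0.5 mg/kg, 86 of 12411 genes (0.693%) were called, 64 higher (0.516%) and 22 lower (0.177%). From 0.1 to 5 mg/kg, 1543 genes (12.4%) were called, 849 higher (6.84%) and 694 lower (5.59%). Against the controls, which both comparisons share with that of the lowest dose, 240 genes (1.93%) were called at 0.5 mg/kg and 1706 (13.7%) at 5 mg/kg.

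Of the 15 PPARα targets and related genes, 8 were called higher from 0.1 to 0.5 mg/kg, beside 0.516% of all genes. From 0.1 to 5 mg/kg, 12 were called higher, beside 6.84% of all genes. *Ehhadh* rose by 2.11 (1.87 to 2.36) on the log2 scale between 0.1 and 0.5 mg/kg (adjusted p 7.03e-18 in edgeR), to 1811 to 2625 CPM in males and 728.8 to 1260 CPM in females. Every mouse at 0.5 mg/kg lay above every mouse at 0.1 mg/kg, where the highest had 509 CPM. *Cyp4a10* rose by 2.68 (2.16 to 3.21) and *Cyp4a14* by 3.42 (2.51 to 4.34) over the same step. *Cd36* rose by 2.46, *Acot1* by 1.73, *Fabp1* by 0.79, *Plin2* by 0.51 and *Me1*, the malic enzyme that supplies NADPH, by 0.83.

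**Figure D2:**
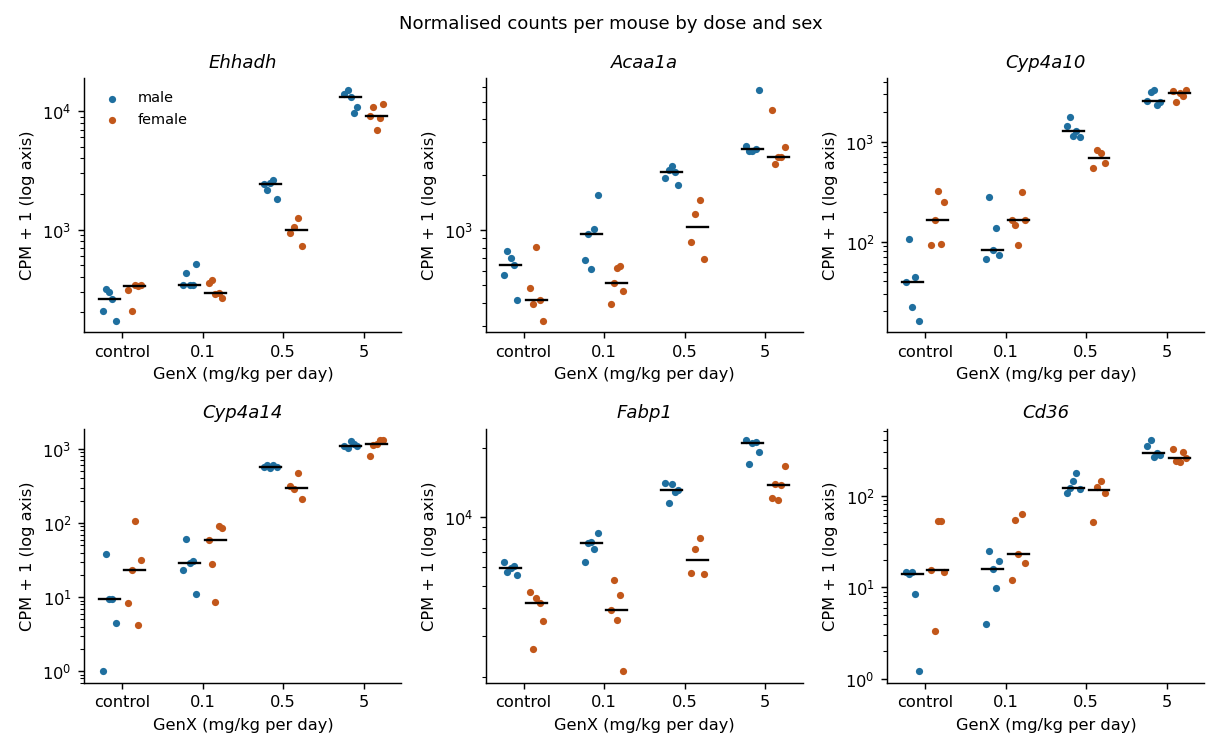
Normalised counts (CPM + 1, log axis) of 6 fatty acid genes in each mouse at control, 0.1, 0.5 and 5 mg/kg, males in blue and females in orange, with the median of each group as a black line. Control and 0.1 mg/kg mice overlap in females for each gene. The males at 0.1 mg/kg sit above the control males for *Ehhadh*, from 339 to 509 CPM against 168 to 311 CPM. They also do so for *Fabp1*, where the lowest treated and the highest control male both round to 6310 CPM. In the other panels the males overlap.

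Counted by list, called changes were as follows. Among the 12411 genes tested, of which 0.516% rose from 0.1 to 0.5 mg/kg, 8 of 22 peroxisomal β-oxidation genes, 8 of 20 mitochondrial ones, 5 of 11 Cyp4 genes and 6 of 16 uptake genes rose over that step. Ketogenesis and fasting targets had 1 of 19, lipogenesis 1 and cholesterol synthesis 0 higher calls. From 0.1 to 5 mg/kg, coagulation and complement factors fell in 25 of 32, acute phase proteins in 9 of 17, zonation genes in 10 of 17, bile acid genes in 6 of 12, glucose metabolism genes in 7 of 14 and sex-biased liver genes in 10 of 18 cases, beside 5.59% of all genes. Of the 10 hepatocyte markers, 7 fell over the same step, and their summed median went from 23400 to 18600 CPM in males and from 27900 to 21000 CPM in females. Their part in the falls of these lists was not tested. Of the coagulation and acute phase lists, 0 and 1 members were called lower between 0.1 and 0.5 mg/kg, beside 0.177% of all genes. At 0.5 mg/kg against control, 8 of 32 and 3 of 17 of their members were called lower, beside 75 of all 12411 genes.

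**Figure D3:**
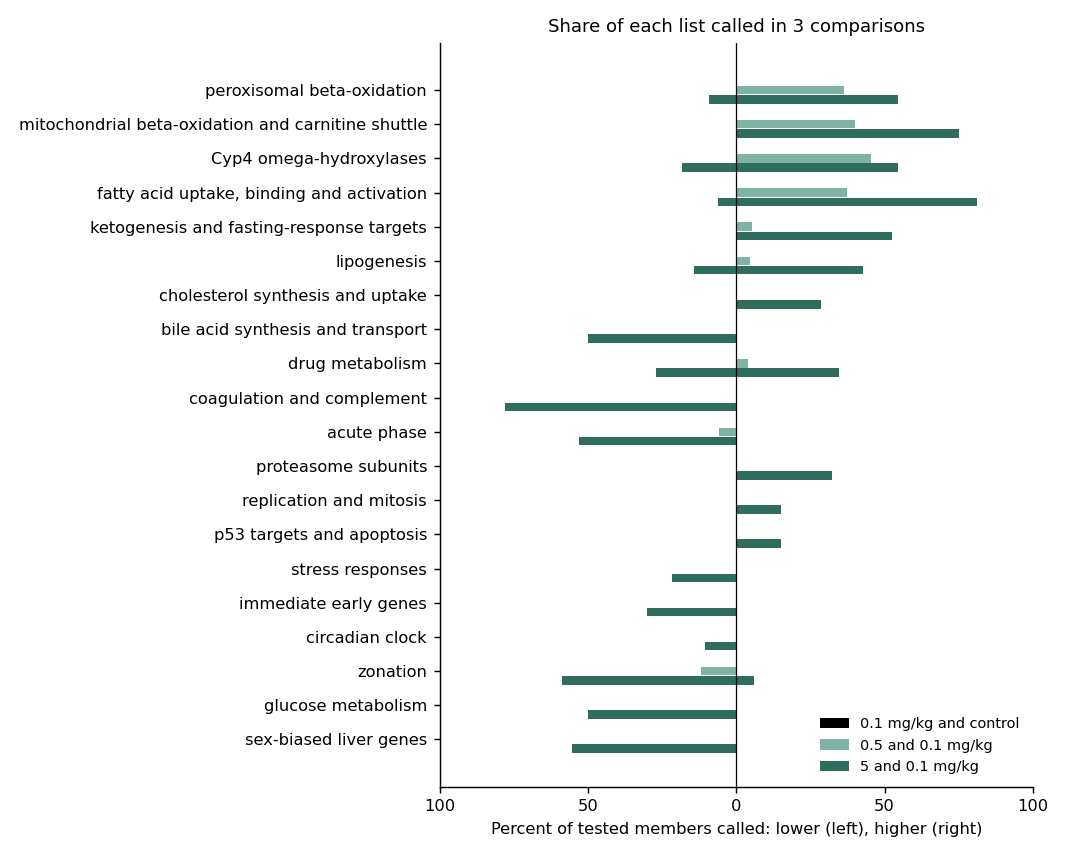
Percent of tested members of each of 20 gene lists called higher (right of 0) or lower (left of 0) for 0.1 mg/kg against control (black), 0.5 against 0.1 mg/kg (light green) and 5 against 0.1 mg/kg (dark green). No black bar is visible, since 0 members of any list were called at 0.1 mg/kg.

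Other lipid genes were close to the control level or not resolved at 0.1 mg/kg. In lipogenesis, 21 genes were tested, 15 were above 0, the median was 0.13 and 0 were called. *Fasn*, the fatty acid synthase, stood at 63.3, 86.3, 109, 78.8 and 109 CPM in control males and 213, 127, 105, 90 and 173 CPM in treated males. Control females had 131, 59, 48, 81.9 and 64.4 CPM, and treated females 46.1, 249, 102, 119 and 82.3 CPM. Its groups overlapped in both sexes, and the log2 fold change was 0.66 (0.20 to 1.11), with an unadjusted p of 0.00648 and a second probe at 0.15. It was 0.67 in males and 0.64 in females.

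Cholesterol synthesis and uptake had a median of 0.20 over 21 genes, 14 above 0 and 0 called. In bile acid synthesis and transport, the median was 0.10 over 12 genes, and *Cyp7a1*, the rate-limiting enzyme, had 0.26 (-0.26 to 0.78) with overlapping groups from 64 to 400 CPM. None of its members had an unadjusted p below 0.05.

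Most drug metabolism genes had estimates below 0, with 8 of 26 above it, a median of -0.12 and 0 called. It had 3 members with an unadjusted p below 0.05, all lower, beside 1.02% of all genes. *Gstm3*, a glutathione transferase, was -0.28 (-0.47 to -0.09), from 2270 to 3200 CPM in control males, 1970 to 2750 in treated males, 1290 to 1780 in control females and 950 to 1360 CPM in treated females. *Cyp3a16* had 0 reads in each of the 10 males, so its -1.28 (-2.20 to -0.36) comes from females alone, at 118 to 687 CPM in controls and 26.6 to 272 CPM in treated mice. Its probe may share reads with other Cyp3a genes.

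Coagulation and complement factors, made by hepatocytes, had a median of -0.07 over 32 genes, and 31 of the 32 intervals lay within -1 to 1. *F7*, coagulation factor VII, stood at 88.3, 72.4, 69.6, 75.7 and 87.7 CPM in control males and at 62.7, 53.5, 54.2, 32.6 and 56.9 CPM in treated males, with no overlap. In females, control values of 69.2 to 131 CPM and treated values of 60.1 to 111 CPM overlapped. The estimate was -0.42 (-0.72 to -0.11), and *F5*, factor V, had -0.51 (-0.85 to -0.17). These 2 of 32 had an unadjusted p below 0.05, beside 1.02% of all genes in that direction. Complement component C5, which the files name *Hc*, is not among the 32 and had 0.69 (0.26 to 1.11), with an unadjusted p of 0.00248.

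In the acute phase list, 15 genes had a median of -0.01, yet *Saa2* and *Saa1*, serum amyloid A proteins of the inflammatory response, had 1.93 (0.71 to 3.15) and 1.37 (0.36 to 2.37). *Saa2* stood at 26.7 to 54.4 CPM in control males and 95.5 to 166 CPM in control females. Treated males had 29.4, 12, 21.7, 972 and 89.7 CPM, and treated females 36.2, 52.9, 664, 964 and 116 CPM. Mice 204, 253 and 254 stood far above every control, and 4 of the other 7 treated mice lay below every control of their sex. Without mouse 204 the estimates were 0.73 for *Saa2* and 0.68 for *Saa1*, and without mice 204 and 253 they were 0.52 and 0.54. The 2 genes are near copies, and their probes may share reads.

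The clock list had a median of 0.09 over 15 genes, with *Dbp*, a transcription factor whose RNA cycles strongly over the day, at 3.22 (1.09 to 5.35). Controls had 0 to 7.98 CPM. Treated males had 0, 25, 0, 155 and 0 CPM, and treated females 1.62, 2.63, 248, 2.42 and 4.16 CPM. Among the 20, mice 202, 204 and 253 lay above the control range, and the estimate was 2.13 without mouse 204 and 1.32 without mouse 253. Without both it was -0.15 and the median of the list -0.14. The hour at which each liver was taken is not given in the sources used here, and its part in these values was not tested.

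The remaining lists had 0 called members at this dose, and several of them were only partly resolved. Proteasome subunits had a median of 0.03 over 33 genes, stress response genes 0.05 over 21, glucose metabolism genes 0.07 over 14, zonation genes 0.01 over 17, sex-biased genes 0.00 over 18 and p53 and apoptosis genes -0.09 over 18, with 0 members past an unadjusted p of 0.05 in each. Immediate early genes had a median of 0.20 over 9. Intervals lay within -1 to 1 for 25 of 33 proteasome, 14 of 17 zonation and 12 of 14 glucose metabolism genes. They did so for only 10 of 21 stress response, 7 of 18 sex-biased, 6 of 18 p53 and apoptosis and 3 of 9 immediate early genes. Replication and mitosis genes had a median of -0.43 over the 9 of 21 that could be tested, and 0 of these 9 intervals lay within -1 to 1.

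**Figure D4:**
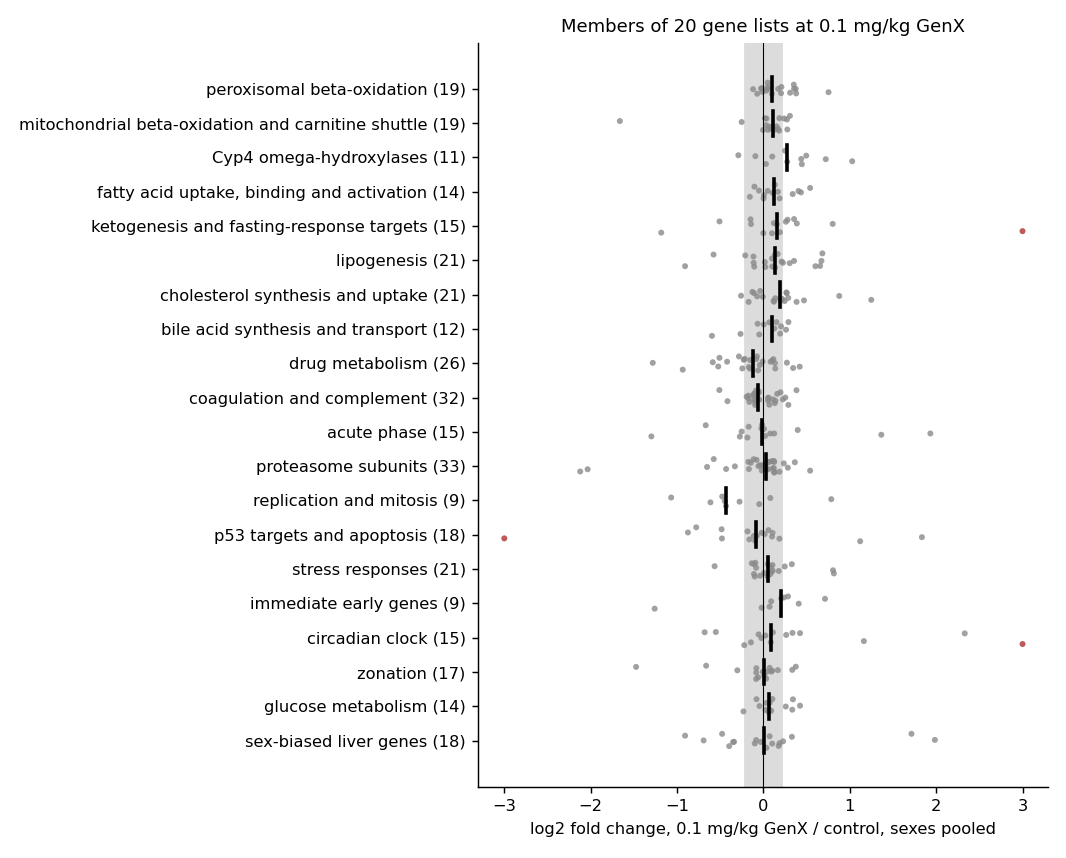
Log2 fold changes of the tested members of 20 gene lists (number tested in brackets) at 0.1 mg/kg over control with the sexes pooled, with the list median as a black bar. The grey band runs between the quartiles of all 9946 genes, -0.22 and 0.21, and red points lie past 3 and are drawn at the edge. The medians of 18 lists lie in the band, and those of the Cyp4 ω-hydroxylases (0.28) and of replication and mitosis (-0.43) lie outside.

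Of the 20 genes with the smallest p in the pooled comparison, which were named by rule and not called, 13 were higher and 7 lower in treated mice, and 19 had the same sign in both sexes. With edgeR, 0 of them were called between 0.1 and 0.5 mg/kg. *Blm*, a DNA helicase, headed the order with 0 reads in each of 10 controls and 19 to 63 reads in 7 of 10 treated mice, about 1 molecule each except in mouse 201, whose 63 reads lay near its second peak of 64.8, so no fold is given. *Hspe1*, the mitochondrial co-chaperone that works with Hsp60, stood at 3.33, 8.85, 4.14, 10.3 and 7.1 CPM in control males and at 38.4, 24, 29.6, 30.3 and 18.2 CPM in treated males. In control females it stood at 22.5, 12.9, 16.2, 24.8 and 14.7 CPM, and in treated females at 28.3, 54.8, 32.1, 20.4 and 5.05 CPM. Males did not overlap and females did, with 1.34 (0.61 to 2.07) pooled and 2.06 (1.09 to 3.03) in males.

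*Atp10d*, a phospholipid flippase, followed the same pattern, with 4.05 to 11.3 CPM in control males and 16.3 to 35.5 CPM in treated males. In females, the ranges of 19.3 to 29.4 and 22.1 to 34.6 CPM overlapped. The estimate in males was 1.75 (1.02 to 2.49), and a second probe gave 1.24 with the sexes pooled. *Atp1b1*, a subunit of the sodium pump, had 42 to 68.8 CPM in control males and 76.1 to 120 CPM in treated males, but 2 other probes gave -0.10 and 0.20. *Hc*, the complement component given above, had 90.5 to 362 CPM in control males and 350 to 589 CPM in treated males.

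*Etfbkmt*, a methyltransferase of the electron transfer flavoprotein, was 0.65 (0.28 to 1.01), with 0.61 in males and 0.68 in females. Its groups overlapped in both sexes, and 2 other probes gave 0.12 and 0.79. *Polr2h*, an RNA polymerase subunit, was 0.85 (0.36 to 1.33) with overlap in both sexes. *Mrps2*, a mitochondrial ribosomal protein, was 0.49 (0.16 to 0.82), with 0.30 in males and 0.67 in females. The males overlapped for it, while treated females at 58.1 to 92 CPM lay above control females at 30.3 to 54.2 CPM. On the lower side, *Cdo1*, which breaks down cysteine, was -0.45 (-0.71 to -0.19), and *Uqcr11*, a subunit of respiratory complex III, -0.35 (-0.58 to -0.13). *Med8*, a Mediator subunit, was -0.65 (-1.02 to -0.27), but a second probe gave 0.07. *Cdo1* had 177 to 220 CPM in control males, 106 to 198 in treated males, 181 to 283 in control females and 124 to 225 CPM in treated females. *Sult1e1*, the estrogen sulfotransferase, had 0 reads in each male, and its -3.64 came from females with 0 to 613 CPM in controls and 2.78 to 48.4 CPM in treated mice.

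From 0.1 to 5 mg/kg, 8 of the 20 were called in edgeR, 3 higher and 5 lower, beside 6.84% and 5.59% of all genes. Higher at 5 than at 0.1 mg/kg were *Atp10d* by 0.99, *Etfbkmt* by 0.59 and *Uqcr11* by 0.59 on the log2 scale. *Cdo1* fell by 1.23 over that step, *Hc* by 1.18, *Atp1b1* by 0.56, *Smarcd2*, a chromatin remodelling subunit, by 0.53 and *Saa2* by 2.08. *Uqcr11* had been lower, and *Hc*, *Atp1b1*, *Smarcd2* and *Saa2* higher, at 0.1 mg/kg than in controls, and both steps share the 0.1 mg/kg mice. The 20 genes were picked for small p in those mice, which by itself favours reversals. Their counts therefore cannot be read against the shares of all genes. With edgeR, the log2 fold change at 5 mg/kg against control was -0.01 for *Atp1b1* and -0.49 for *Hc*, neither called. It was -1.68 for *Cdo1*, 1.98 for *Atp10d* and 1.23 for *Etfbkmt*, each called.

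In the edgeR fits of the 20 libraries with the filter on low counts, the single gene called was *Arf1*, a small GTPase of the Golgi, for the difference between the sexes. DESeq2 called 48 genes for that difference. The edgeR test called 1 of 10688 genes (0.00936%), with a male minus female difference of -13.71 (-18.69 to -8.72) and an adjusted p of 0.0479 in edgeR. Its probe was either high or nearly silent. Control males had 0, 0, 348, 6.06 and 305 CPM, treated males 3.47, 0, 0, 0 and 6.6 CPM, control females 0, 2.96, 2.08, 0 and 1.6 CPM, and treated females 3.41, 0, 520, 449 and 343 CPM. High values of 2787 to 6346 reads were present in 5 of the 20 libraries, and the other 15 had at most 63 reads. With all 39 libraries in the fit, the adjusted p was 0.247.

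**Figure D5:**
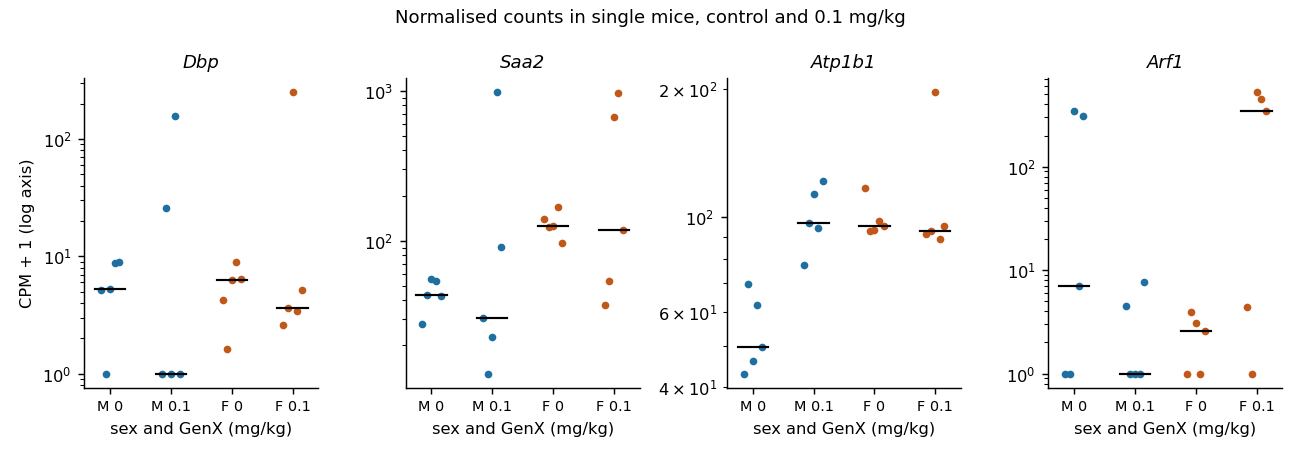
Normalised counts (CPM + 1, log axis) of 4 genes in each control and 0.1 mg/kg mouse, by sex (M, F) and dose in mg/kg, with the group median as a black line. The highest *Dbp* values are those of mice 202, 204 and 253, the highest *Saa2* values those of mice 204, 253 and 254, and *Arf1* is high in 5 mice of 2 groups.

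Markers of other liver cells were compared as whole lists, and in bulk tissue fewer cells of a type and less RNA per cell cannot be told apart. The 8 sinusoidal endothelium markers summed to a median of 311 CPM in control males and 273 in treated males, and to 405 and 347 CPM in females. The 7 tested had a median log2 fold change of -0.33, with 1 above 0, and *Clec4g*, a lectin of these cells, was -0.36 with an unadjusted p of 0.00617. The 9 Kupffer cell and macrophage markers summed to medians of 143 and 134 CPM in males and 221 and 192 CPM in females. The 10 stellate cell and fibroblast markers summed to 153 and 113 CPM in males and 221 and 191 CPM in females, and the 7 cholangiocyte markers to 55.6 and 42.1 CPM and to 83.2 and 50.5 CPM. The 10 lymphocyte markers, at 22.3 and 12.3 CPM in males and 31.2 and 17.9 CPM in females, rest on few molecules. Other lists went up in males. The 6 erythroid markers summed to 92.8 and 143 CPM in males and 76.2 and 75.2 CPM in females. The 7 neutrophil markers, also on few molecules, summed to 4.32 and 9.09 CPM in males and 35.7 and 26.6 CPM in females. The 10 hepatocyte markers summed to 26300 and 23400 CPM in males and 26900 and 27900 CPM in females. For each of these lists, the sums of control and treated mice overlapped in each sex. No marker was called, and the part of the markers in the values above was not tested.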

How the data were processed

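Livers of 20 of 40 mice were compared, 10 at 0.1 mg/kg and 10 controls. Per the labels, the tissue was formalin-fixed and measured with TempO-Seq, and the submitters' processing notes name bcl2fastq 2.17.1.14, Bowtie and mm10. The authors deposited raw read counts per probe, without normalization. The most counted probe over all 40 libraries represented each gene.

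Genes were tested with edgeR 4.0.16 under R 4.3.3 (TMM, default filter on low counts, quasi-likelihood F-test), with sex as a block for the pooled comparison, 4 groups for each sex and their difference, and 8 groups on 39 libraries for the higher doses. Mouse 355 was left out there because its total lay more than 2 SD below the mean. P-values (each two-sided) were adjusted by Benjamini-Hochberg over all genes tested, with a threshold of 0.1, and intervals are 95%. DESeq2 1.42.0 was an alternative. Both were tested on simulated data.

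Molecules were estimated as total reads over the first peak of the count histogram. Reads are not independent molecules. Gene positions are those of GENCODE M21 (GRCm38). The members, the 20 gene lists and the 11 marker lists were chosen with earlier results of these data known. Named by rule were the 20 genes of smallest pooled p, the 2 of smallest p in each list, 15 PPARα targets and related genes, and any gene called within a sex or between the sexes. Some genes are not reported here.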

Additional observations from a re-analysis of the deposited data

Results flagged for a closer look

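In groups of 5 mice, the gap of the farthest mouse to its nearest neighbour was set against the range of the group. This was done for the 20 genes of smallest p, 15 PPARα targets and related genes, the total reads and the molecules. For genes, gap and range were taken on log2(CPM + 1), while the values below are plain CPM. A gene's group with any mouse at 0 reads was not checked, which left out the treated males for *Dbp*. Of 123 groups checked, 7 were past the limit of 0.71, and chance alone gives about 1 in 20. *Dbp* was 248 CPM in treated female 253, whose group otherwise had 1.62 to 4.16 CPM. *Atp1b1* was 195 CPM in the same mouse, against 87.7 to 94.4 CPM, and 116 CPM in control female 151, against 91.6 to 97 CPM. *Acot1* was 35.2 CPM in treated male 202, against 91.8 to 108 CPM. *Cd36* was 0.219 CPM in control male 105, against 7.5 to 13.7 CPM. *Cdo1* was 177 CPM in control male 103, against 209 to 220 CPM. *Ehhadh* was 205 CPM in control female 152, against 306 to 339 CPM.

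For *Arf1*, the estimates at 0.1 mg/kg differed between males and females by -13.71 on the log2 scale, by edgeR's test of that difference (adjusted p 0.0479). The probe had 2787 to 6346 reads in 5 of the 20 libraries and at most 63 in the other 15, so the value is no graded fold. The high libraries were of control males and treated females. At 0.5 and 5 mg/kg the highest mouse of each sex had 333.8 to 496.6 CPM, with group medians of 0. In the edgeR fit on all 39 libraries the adjusted p of the difference for *Arf1* was 0.247.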

How the results depend on the processing

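With the sexes pooled, 0 genes were called at 0.1 mg/kg with DESeq2, with DESeq2's size factors, on 39 libraries, without the sex block, with other probes, in molecules, with robust estimation, as the mean of the 2 within-sex contrasts, at an adjusted p below 0.05 and without any 1 mouse. The exception was the fit without a filter on low counts, with 8 calls among 14700 genes, *Cyp3a16*, *Dbp*, *Etfbkmt*, *Gm4788*, *Hc*, *Saa1*, *Saa2* and *Sult1e1*. Without mice 204 and 253, an alternative chosen after seeing the data, 0 genes were called pooled and in each sex. DESeq2 called 49 genes in males, 21 in females and 48 for their difference, and for 0.5 against 0.1 mg/kg it called 261 (132 higher, 129 lower) and for 0.5 mg/kg against control 479, where edgeR called 86 (64 higher, 22 lower) and 240. On 39 libraries 5 genes were called in males and 0 for the difference between the sexes. With mouse 355 kept, 29 and 996 genes were called for 0.5 and 5 against 0.1 mg/kg. That library was the only change of input, but the filter and scaling were run anew. They left 12019 genes to test, against 12411 without it. Leaving out 1 mouse gave 0 to 3 calls in males, 1 (*Hc*) without mouse 103, 1 (*Slc5a1*) without mouse 201 and 3 (*Atp10d*, *Il34* and *Myo1d*) without mouse 203, and 0 calls in females. Of 71 tested genes under the naming rule, 69 kept their sign in each alternative and each fit without 1 mouse, and *Dbp* and *Arf1* did not. Where values moved, the cause was not tested. No paired analysis was possible because each mouse has a number of its own that no mouse of another group shares. The 20 libraries held about 287244 to 521441 captured molecules, with 1 molecule at 24 to 49.8 reads. Genes at a few CPM thus rest on about 1 molecule, and small differences in them could not be resolved. The median standard error was 0.41 pooled and 0.69 within a sex.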
